A study of Mus musculus with 10 samples.

Results

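In group 2 innate lymphoid cells (ILC2s), 1716 of 50039 accessible regions (3.43%) were open in the large intestine (LI), lung, and pancreas and less open in the bone marrow (BM) and small intestine (SI). They were chosen by their accessibility. The count of each library was divided by its size factor (the median ratio of its counts to the geometric mean of all libraries), which gives the normalised count, and a region is a member where the lowest log2(normalised count + 1) of the 6 LI, lung, and pancreas libraries lies at least 0.2 above the highest of the 4 BM and SI libraries. This distance is called the gap below, and it is a description of how members were selected, so no test of open against closed tissues is given. Members had 1125 nearest genes, of 16331 for all regions, where the nearest gene is the one with the closest transcription start site (TSS) in RefSeq.

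ATAC-seq, a measure of chromatin accessibility, was run on sorted ILC2s of wild-type male C57BL/6 mice aged 6 weeks, with 2 libraries for each of 5 tissues. All 5 groups were untreated, and a library holds 50000 cells, taken from 16 mice together (BM, lung, pancreas) or 10 mice together (LI, SI), so a library is a pool and not an animal. Lineage-negative cells were sorted as ST2+CD25+ from BM, on a sorter of their own, as CD45+CD127+ST2+CD25+ from LI, lung, and pancreas, and as CD45+CD127+KLRG1+ with low Thy1 from SI. BM was flushed and not digested, the intestines shared one digestion, and SI was the one tissue sorted without ST2. For BM and for SI, the gate and the tissue cannot be told apart.

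ILC2s are tissue-resident lymphocytes that lack antigen receptors and make the type 2 cytokines IL-5 and IL-13 under the control of GATA3. They respond to alarmins such as IL-33 through ST2, the product of *Il1rl1*. In ATAC-seq the transposase Tn5 cuts accessible DNA, and regions outside promoters often hold enhancers, where dimers of FOS and JUN proteins (AP-1) bind a palindromic site in many activated lymphocytes.

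The letters TGANTCA, the AP-1 consensus, lay in the central 500 bp of 966 members. To show what this looks like in sequence, 6 members are printed from the GRCm38 (mm10) genome, plus strand, 5′ to 3′, 140 bases each, with matches in capitals. They are the member with the widest gap (*Bace2*, chr16:97401854-97401993, intron 2), the widest at the IL-33 receptor gene (*Il1rl1*, chr1:40448511-40448650, intron 8), at the gene with the most members (*Nrp1*, chr8:128165109-128165248, intergenic), and at *Cd44* (chr2:102831703-102831842, intron 9), a member upstream of *Arg1* (chr10:24931600-24931739, intergenic), and the widest at *Cd28* (chr1:60821561-60821700, intergenic), which has no match.
Bace2: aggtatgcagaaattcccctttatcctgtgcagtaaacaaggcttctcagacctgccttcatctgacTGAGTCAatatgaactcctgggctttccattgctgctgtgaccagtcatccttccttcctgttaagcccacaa
Il1rl1: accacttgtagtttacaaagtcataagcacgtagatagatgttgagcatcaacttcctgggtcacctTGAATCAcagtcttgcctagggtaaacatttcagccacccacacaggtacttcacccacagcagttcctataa
Nrp1: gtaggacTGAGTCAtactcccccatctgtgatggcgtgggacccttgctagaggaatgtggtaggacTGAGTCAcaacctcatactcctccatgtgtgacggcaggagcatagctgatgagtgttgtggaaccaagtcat
Cd44: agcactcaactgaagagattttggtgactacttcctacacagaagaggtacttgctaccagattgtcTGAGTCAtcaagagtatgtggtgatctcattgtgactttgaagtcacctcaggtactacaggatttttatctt
Arg1: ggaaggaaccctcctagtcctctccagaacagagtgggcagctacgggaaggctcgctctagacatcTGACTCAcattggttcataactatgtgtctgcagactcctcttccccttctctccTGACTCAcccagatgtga
Cd28: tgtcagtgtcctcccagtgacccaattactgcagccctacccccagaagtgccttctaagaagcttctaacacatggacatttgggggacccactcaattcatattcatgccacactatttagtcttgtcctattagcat
The matches printed in the *Bace2*, *Cd44*, and *Nrp1* windows read TGAGTCA, and both in the *Arg1* window read TGACTCA. These are the same letters read from opposite strands. The *Il1rl1* window holds the form with A in the middle. The *Nrp1* window repeats a short stretch around each of its matches, and a further match lies outside the bases printed.

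The typical member held few reads in BM and SI and an ordinary number elsewhere. The median member had 52.4 and 57.7 normalised counts in the BM libraries and 61.4 and 63.1 in SI. It had 164 and 160.5 in LI, 158 and 177 in lung, and 185 and 202 in pancreas, where the median of all regions lay between 128 and 153 in every library. "Closed" is a relative term here. The mean of the 4 BM and SI libraries was below the lower quartile of all regions in 1002 members (58.4%) and above the median of all regions in 338 (19.7%). Each member had at least 1 count in each library.

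**Figure D1:**
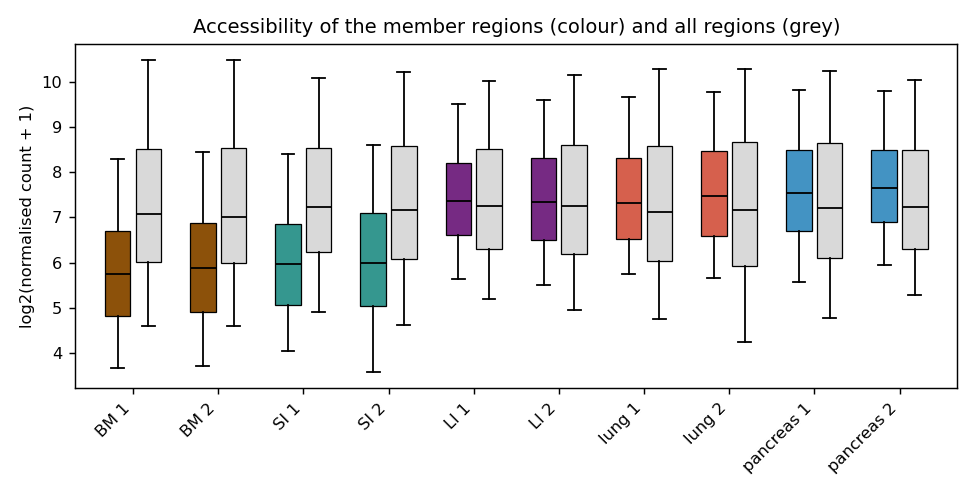
Boxes show log2(normalised count + 1) of the 1716 members (colour) and of all 50039 regions (grey) in each of the 10 libraries, with the quartiles as box, the median as line, and the 5th and 95th percentiles as whiskers. Members lie below all regions in the 4 BM and SI libraries and near them in the other 6, which is how they were chosen.

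The gap ranged from 0.20 to 2.97 with a median of 0.47. It reached 0.5 in 800 members, 1 in 234, 1.5 in 58, and 2 in 13. The difference of the mean log2 values of open and closed tissues had a median of 1.51. Just inside the limit, the region nearest *Slc25a24* had normalised counts of 133 and 103 in BM, 113 and 144 in SI, 166 and 219 in LI, 174 and 221 in lung, and 206 and 195 in pancreas. Just outside, the region nearest *Yipf4* had 16.5 and 19.5 in BM, 41.3 and 40.0 in SI, 49.2 and 70.4 in LI, 49.4 and 52.5 in lung, and 47.5 and 52.5 in pancreas. The pair differs in gap by less than 0.01, and the highest closed and lowest open library nearly touch in both.

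The widest gap was in intron 2 of *Bace2* (chr16:97401661-97402175), which encodes an aspartic protease related to beta-secretase. It had normalised counts of 17.5 and 13.0 in BM, 22.1 and 16.3 in SI, 179.7 and 209 in LI, 198 and 212 in lung, and 431 and 382 in pancreas. Lung was below pancreas there (lung minus pancreas log2 difference -0.99 ± 0.25 SE, edgeR adjusted p = 0.0283), a call that was lost in fits that left out 1 library, namely without lung replicate 1 (0.156), without lung replicate 2 (0.223), without pancreas replicate 1 (0.132) and without pancreas replicate 2 (0.144), where the number in parentheses is the adjusted p of that fit, here and below. LI was also below pancreas (log2 difference -1.04 ± 0.25 SE, edgeR adjusted p = 0.0335), a call lost without LI replicate 1 (0.172), without LI replicate 2 (0.151), without lung replicate 1 (0.0558), without lung replicate 2 (0.0569), without pancreas replicate 1 (0.251) and without pancreas replicate 2 (0.121). The second lay in intron 3 of the transcript *Gm29243* (chr8:34225073-34225594), with 39.8 and 61.4 in BM, 39.3 and 64.4 in SI, 578 and 491 in LI, 632 and 777 in lung, and 946 and 987 in pancreas. That every open library exceeded every closed one is the rule of selection, and pancreas was again the highest. The third (chr6:37370515-37371067) has the TSS of *Dgki*, a diacylglycerol kinase gene, as its nearest but lies in intron 2 of *Creb3l2*, the gene of a membrane-bound transcription factor. Its normalised counts were 28.1 and 26.0 in BM, 84.4 and 69.2 in SI, 458 and 489 in LI, 989 and 1033 in lung, and 586 and 676 in pancreas. BM was below SI (log2 difference -1.52 ± 0.26 SE, edgeR adjusted p = 0.000438), which held in each fit that left out 1 library, and LI was below lung (log2 difference -1.07 ± 0.20 SE, edgeR adjusted p = 0.00273), which was lost without lung replicate 2 (0.0523).

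Among the next 17, a region 27.8 kb downstream of the TSS of *Mc3r*, a melanocortin receptor gene (chr2:172276039-172276564), had 23.3 and 28.8 in BM, 19.2 and 9.50 in SI, 224 and 117 in LI, 366 and 571 in lung, and 723 and 515 in pancreas. This is the largest ratio of mean open to mean closed counts among these 20 members, 20.7, and the LI libraries were below all lung and pancreas libraries. A region 65.0 kb upstream of *Pnoc*, the gene of the nociceptin precursor (chr14:65490166-65490698), had 28.1 and 33.5 in BM, 30.7 and 23.7 in SI, 149 and 144 in LI, 159 and 138 in lung, and 389.8 and 386 in pancreas. Lung was below pancreas (log2 difference -1.39 ± 0.26 SE, edgeR adjusted p = 0.00521), a call lost without lung replicate 2 (0.117) and without pancreas replicate 2 (0.0582). In intron 1 of *Cntn1*, the gene of the adhesion molecule contactin-1 (chr15:92054286-92054815), the counts were 22.3 and 25.1 in BM, 34.5 and 45.5 in SI, 242 and 276 in LI, 206 and 267 in lung, and 321 and 233 in pancreas. The 3 open tissues overlapped one another at this region. The other members of the 20 lay nearest *Slc24a2*, *Fa2h*, *Nbea*, *Zcchc14*, *Slc18a2*, *1700121N20Rik*, *Palld*, *Eepd1*, *Dscam*, and *Ank3*, with *Bace2* and *Nbea* present more than once. *Il1rl1* followed at rank 27.

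**Figure D2:**
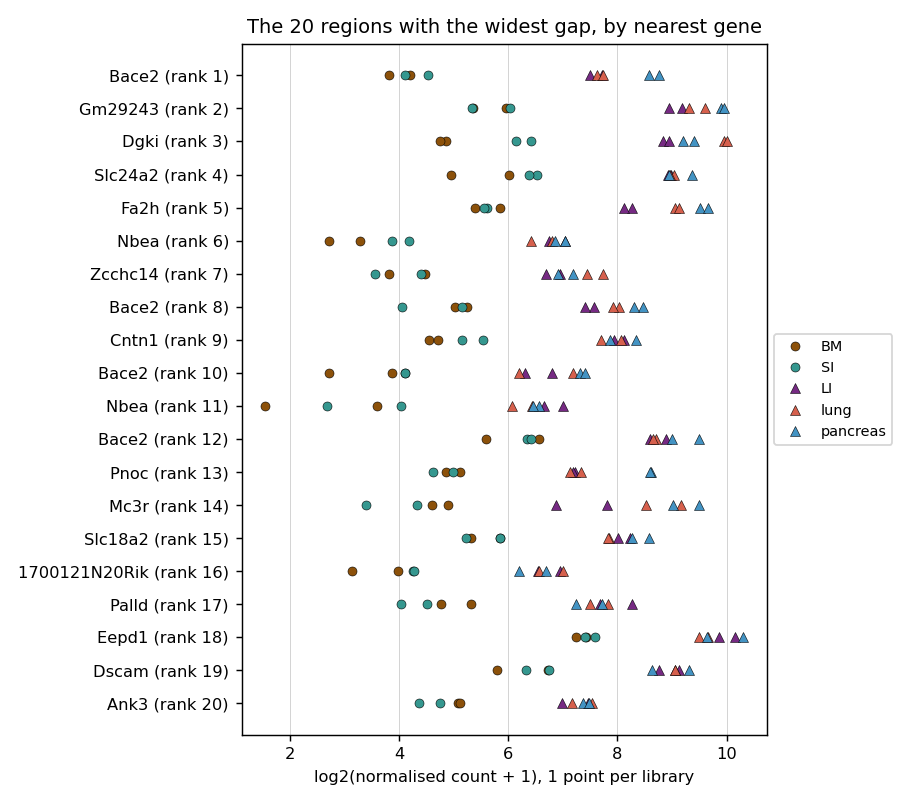
Points show log2(normalised count + 1) in each library for the 20 members with the widest gap, named by nearest gene and ordered by gap, with circles for BM and SI and triangles for LI, lung, and pancreas. The space between circles and triangles is the gap that ranked them, 2.97 at the top and 1.87 at the bottom.

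Members were rare at promoters, a feature the selection did not use, and so were regions chosen by the same arithmetic as closed in other tissues. A promoter, the stretch from 1000 bp before to 100 bp after a TSS, held 65 members (3.79%, exact 95% binomial interval 2.94 to 4.80) against 19.0% of all regions. Gene bodies held 906 (52.8% against 48.2%) and intergenic DNA 745 (43.4% against 32.8%). The median distance to a TSS was 26.1 kb for members and 10.9 kb for all regions, and with promoters left out 27.7 kb and 16.9 kb. Of the members, 261 (15.2%) lay over 100 kb from a TSS, against 7.15% of all regions. GC content was lower (median 46.2% against 49.8%), and width was alike (528 and 532 bp). Sets chosen by the same arithmetic as closed in other tissues had similar values, so these features do not set the members apart from such sets. Promoters held 4.61% of the regions closed in BM alone, 5.55% of those closed in SI alone, and 5.16% of those closed in BM and lung, with median GC contents of 46.5%, 46.7%, and 46.0% and median TSS distances of 20.3, 24.7, and 21.6 kb. The mirror image, 388 regions open in BM and SI and closed in LI, lung, and pancreas, was nearer to all regions. Its promoter share was 16.5%, its median GC content 51.0%, and its median TSS distance 8.79 kb. Neighbouring regions share cells and DNA, so the interval covers counting error only.

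Members also lay next to one another. For 404 members (23.5%) the nearest region on the chromosome was itself a member, which held for 2.75% of the other regions. Neighbours were not counted in the sets closed in other tissues, so whether this sets the members apart from them is not known. A further member was within 50 kb of 843 members (49.1%), and 63 runs of at least 3 adjacent members were found. The longest held 6 members. One spanned 81.3 kb from upstream of *Bace2* into its intron 2, and the other 18.2 kb at *4930512J16Rik*, a gene with a RIKEN clone name. Runs of 5 lay at *Adgrf5*, *Sema6d*, and *Cntn1*. At *Cntn1* all 5 regions of the gene were members.

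The genes with the most members were *Nrp1* (9 of its 22 regions), *Bace2* (8 of 12), *Inpp4b* (8 of 45), *Bach2* (8 of 29), *Cd44* (7 of 24), *4930512J16Rik* (6 of 8), *Gas7* (6 of 14), *Crybg1* (6 of 13), *Cobll1* (6 of 17), and *Sema6d* (6 of 12). *Nrp1* encodes neuropilin-1, a receptor for semaphorins and VEGF, and *Sema6d* a semaphorin. Of the 9 *Nrp1* members, 7 lay outside the gene's transcribed part, up to 206.0 kb upstream of its TSS. The region 187.7 kb upstream (chr8:128171071-128171772) had 194 and 269 in BM, 80.6 and 78.0 in SI, 587 and 596 in LI, 869.5 and 753 in lung, and 978 and 855 in pancreas. BM lay above SI there (log2 difference 1.52 ± 0.22 SE, edgeR adjusted p = 0.000147), as it did 206.0 kb upstream (log2 difference 2.49 ± 0.46 SE, edgeR adjusted p = 0.000938), and both calls held without any 1 library. The *Nrp1* promoter member (chr8:128358095-128358851) showed a narrower gap, with 98.0 and 155 in BM, 203 and 149 in SI, 288 and 249.7 in LI, 406 and 439 in lung, and 389 and 309 in pancreas.

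At *Bace2* the promoter was a member (chr16:97356400-97356952), with 53.4 and 48.4 in BM, 54.7 and 27.8 in SI, 197 and 151 in LI, 214 and 252 in lung, and 269 and 296 in pancreas. The intron 1 member 5.8 kb into the gene (chr16:97362230-97362762) had 13.6 and 5.58 in BM, 16.3 and 16.3 in SI, 110.2 and 78.1 in LI, 145 and 72.1 in lung, and 158 and 168 in pancreas. Of the 4 regions at *Bace2* that were not members, 2 missed the limit with a gap of 0.15 or 0.17, and the farthest upstream was level over the tissues, at 123.8 to 145 normalised counts. *Bach2* encodes a repressor that binds AP-1-like sites. Its members lay 11.5 to 149.8 kb upstream of the nearest *Bach2* TSS, and the one 102.3 kb upstream (chr4:32314927-32315427) had 17.5 and 23.3 in BM, 19.2 and 10.9 in SI, 49.2 and 66.9 in LI, 53.3 and 76.5 in lung, and 172 and 155 in pancreas. Pancreas was the highest tissue at this region. *Inpp4b* encodes a lipid phosphatase of the phosphoinositide pathway, and all 8 of its members lay in the gene body, from 8.1 to 524.6 kb downstream of the nearest TSS.

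*Cd44* encodes a receptor for hyaluronan and is carried by activated lymphocytes. Of its 7 members 6 were lower in BM than in SI by the edgeR test, a call made for 15.1% of all regions. The clearest lay 55.5 kb upstream (chr2:102956854-102957389), with normalised counts of 49.5 and 71.6 in BM, 139 and 180.4 in SI, 453 and 449.7 in LI, 368 and 442 in lung, and 247 and 284 in pancreas. BM was below SI (log2 difference -1.43 ± 0.27 SE, edgeR adjusted p = 0.000973), and this was the one *Cd44* call that held in each fit that left out 1 library. The other 5 calls were lost in 1 to 5 of those 10 fits, with adjusted p-values of up to 0.196. For example, the call in intron 1 14.1 kb from the TSS (log2 difference -0.85 ± 0.26 SE, edgeR adjusted p = 0.0231) was lost without BM replicate 2 (0.178).

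Genes of cytokine and alarmin receptors held 9 members among 202 regions (4.46%, against 3.43% of all regions), 5 nearest *Il1rl1* and 4 nearest *Il18rap*. The other genes of this list, *Il7r*, *Il2ra*, and *Il17rb* among them, had none. *Il1rl1* encodes ST2, and *Il18rap* a chain of the IL-18 receptor. The member in intron 8 of *Il1rl1* (chr1:40448262-40448777) had 29.1 and 21.4 in BM, 12.5 and 9.50 in SI, 103 and 154 in LI, 289 and 471 in lung, and 427 and 332 in pancreas. LI lay between the closed tissues and the other open ones (LI minus lung log2 difference -1.53 ± 0.30 SE, edgeR adjusted p = 0.00359), a call lost without LI replicate 1 (0.0541) and without lung replicate 2 (0.108). The member 36.1 kb upstream of the *Il1rl1* start site, the most 5′ one (chr1:40393166-40393845), had 220.3 and 194 in BM, 83.5 and 128 in SI, 424 and 435 in LI, 618 and 780.4 in lung, and 868 and 815 in pancreas. Pancreas was highest and SI lowest. In intron 9 of the neighbouring *Il18r1*, the member nearest *Il18rap* (chr1:40494484-40495002) had 33.0 and 73.5 in BM, 15.4 and 25.1 in SI, 84.8 and 104 in LI, 127 and 146 in lung, and 121 and 124 in pancreas.

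BM and SI were unlike each other at this locus. BM exceeded SI at 6 of the 9 members (edgeR, adjusted p under 0.05), a call made for 10.7% of all regions, most firmly in intron 6 of *Il1rl1* (chr1:40444625-40445181; log2 difference 1.81 ± 0.30 SE, edgeR adjusted p = 0.000444), which alone of the 6 held in each fit without 1 library. The other 5 calls were lost in 1 to 7 of the 10 fits, with adjusted p-values of up to 0.353. That region had 123 and 156 in BM, 32.6 and 44.8 in SI, 205 and 276 in LI, 314 and 490.2 in lung, and 461 and 527 in pancreas. The window from 60 kb before to 130 kb after the *Il1rl1* start site held 25 further regions. By the same test BM was called higher than SI at 16 of them and lower at 0. At the promoter region 0.3 kb before the start site the mean normalised count was 355 in BM, 57.8 in SI, 128 in LI, 389 in lung, and 420.2 in pancreas. That region is no member, since the BM libraries (447 and 263) lay above the LI libraries (110 and 146) there. SI cells were sorted without ST2, the product of *Il1rl1*, so the gate and the tissue cannot be told apart for SI at this gene.

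**Figure D3:**
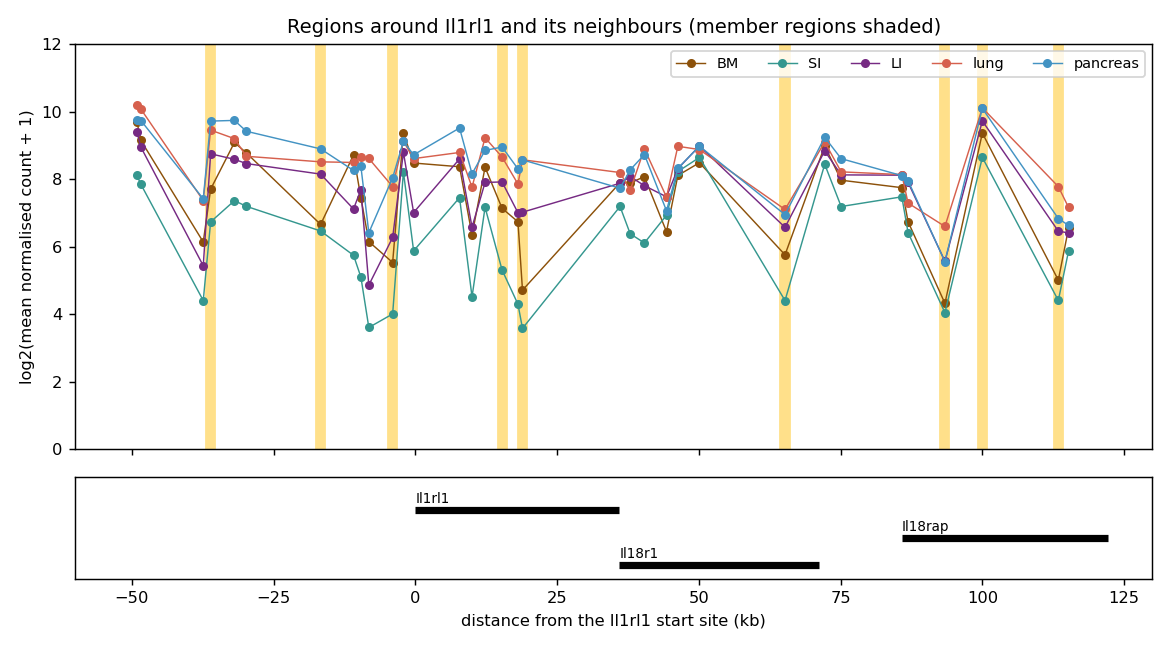
The upper panel gives log2(mean normalised count + 1) of each tissue (mean of 2 libraries, no error bars) at the 34 regions around the *Il1rl1* start site, with the 9 members shaded, and the lower panel the extent of the genes. At the members BM and SI fall below the other 3 tissues, and the SI mean lies below the BM mean at most regions from the left edge to the *Il1rl1* gene and beyond.

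Costimulatory and checkpoint receptor genes held the largest share of members among the 13 lists examined, 17 of 182 regions (9.34%, against 3.43% of all regions). They lay nearest *Cd28* (4), *Tigit* (3), *Pdcd1* (3), *Thy1* (2), *Btla*, *Icos*, *Tnfsf4*, *Havcr2*, and *Klrk1*, and none lay nearest *Ctla4*, *Lag3*, or *Klrg1*. Promoters of the inhibitory receptors *Tigit*, *Pdcd1*, and *Btla* were among them, as was that of *Klrk1*, which encodes the activating receptor NKG2D. The *Tigit* promoter (chr16:43664067-43664667) had 149 and 143 in BM, 345 and 374 in SI, 648 and 855 in LI, 644 and 587 in lung, and 527 and 575 in pancreas. BM was below SI there (log2 difference -1.32 ± 0.21 SE, edgeR adjusted p = 0.000324), also without any 1 library. The *Pdcd1* promoter, at the gene of PD-1 (chr1:94052323-94052823), had 86.4 and 82.8 in BM, 111 and 117 in SI, 153 and 244 in LI, 208 and 263 in lung, and 171 and 147 in pancreas. These groups were separated by a narrow margin, with pancreas close to SI. At *Cd28*, which encodes a costimulatory receptor of T cells, a member 4.2 kb into intron 1 (chr1:60750337-60750875) had 196 and 217 in BM, 153 and 253 in SI, 605 and 720.0 in LI, 545 and 383 in lung, and 969.8 and 796 in pancreas. A region 72.6 kb downstream of the *Icos* TSS (chr1:61050273-61050802) had 148 and 175 in BM, 15.4 and 36.6 in SI, 275 and 326 in LI, 278 and 238 in lung, and 245 and 281 in pancreas. BM reached about 6 times the SI level there (log2 difference 2.56 ± 0.34 SE, edgeR adjusted p = 6.03e-05), which held in each fit without 1 library.

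The list of type 2 cytokines and ILC2 effectors held 12 members among 167 regions (7.19%, against 3.43% of all regions). These members lay nearest *Tnfsf14* (3), *Arg1* (2), *Cxcl2* (2), *Ccl1*, *Areg*, *Tnfsf8*, *Furin*, and *Cxcl3*. Regions nearest *Il4*, *Il5*, *Il9*, *Il13*, and *Csf2* held no member. *Arg1* encodes arginase-1, an enzyme of arginine breakdown that ILC2s contain. Its member 4.2 kb upstream (chr10:24931433-24931941) had 63.1 and 93.0 in BM, 27.8 and 31.9 in SI, 188 and 185 in LI, 249 and 403 in lung, and 223 and 288 in pancreas. BM was above SI (log2 difference 1.35 ± 0.33 SE, edgeR adjusted p = 0.00657), a call lost without BM replicate 2 (0.0844). The *Arg1* promoter was no member and was open in every library, at 338.8 to 1092 normalised counts. *Cxcl2* encodes a chemokine for neutrophils, and its promoter (chr5:90903212-90903769) had 267 and 320.0 in BM, 381 and 359 in SI, 1054 and 1162 in LI, 804 and 731 in lung, and 1259 and 1346 in pancreas. *Areg* encodes amphiregulin, a growth factor, and the member 1.5 kb downstream of its TSS (chr5:91140870-91141370) had 33.0 and 46.5 in BM, 28.8 and 60.4 in SI, 93.2 and 94.4 in LI, 106 and 113 in lung, and 95.1 and 137 in pancreas. The lung libraries lay within the range of LI and pancreas at *Areg*.

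Among ILC2 transcription factors, 34 of 614 regions were members (5.54%), nearest *Bach2* (8), *Bcl11b* (5), *Runx1* (3), *Runx2* (3), *Irf4* (2), *Hif1a* (2), *Rora* (2), *Irf8* (2), *Zeb1*, *Tox*, *Pparg*, *Ets2*, *Gata3*, *Nfatc2*, and *Ets1*. *Gata3*, which encodes the master regulator of these cells, had 1 member, 219.5 kb downstream of its TSS. At *Bcl11b*, the gene of a factor needed for ILC2 identity, a member in an intron (chr12:107961819-107962328) had 48.5 and 73.5 in BM, 60.5 and 129.6 in SI, 231 and 203 in LI, 492 and 622 in lung, and 266 and 300.3 in pancreas. LI was below lung (log2 difference -1.34 ± 0.31 SE, edgeR adjusted p = 0.00999), a call lost without LI replicate 1 (0.0533), without LI replicate 2 (0.0814) and without lung replicate 2 (0.122). A region 37.0 kb downstream of the TSS of *Irf4*, an interferon regulatory factor gene (chr13:30785859-30786626), had 214 and 233 in BM, 69.1 and 50.2 in SI, 412 and 369 in LI, 920.5 and 778 in lung, and 561 and 563 in pancreas. BM exceeded SI (log2 difference 1.89 ± 0.23 SE, edgeR adjusted p = 3.84e-05) and lung exceeded LI (LI minus lung log2 difference -1.10 ± 0.21 SE, edgeR adjusted p = 0.00311), both also without any 1 library. At *Rora*, which encodes a nuclear receptor required for ILC2 development, a member in the gene body (chr9:69174630-69175169) had 64.0 and 62.3 in BM, 42.2 and 40.0 in SI, 176 and 156 in LI, 172 and 181 in lung, and 294 and 271 in pancreas.

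Genes of the AP-1 family itself held 3 members of 98 regions (3.06%), 2 nearest *Fosl2* and 1 nearest *Fos*. Both *Fosl2* members lie in introns of the neighbouring *Babam2*, and the one with the wider gap (chr5:32055597-32056135) had 69.9 and 55.8 in BM, 25.9 and 59.0 in SI, 158 and 163 in LI, 142 and 157 in lung, and 229 and 214 in pancreas. NF-kappaB subunits and inhibitors held 6 of 198 (3.03%), nearest *Map3k8*, *Traf1*, *Cflar*, *Nfkb1*, and *Zc3h12a*. Nuclear factors induced on activation held 5 of 146 (3.42%), nearest *Klf6* (3), *Egr2*, and *Egr3*. These 3 shares lay at or below that of all regions. One *Klf6* member, 51.9 kb downstream (chr13:5913164-5913708), had 47.6 and 48.4 in BM, 48.9 and 45.5 in SI, 217 and 200 in LI, 60.4 and 62.3 in lung, and 179 and 254 in pancreas. Lung was close to the closed tissues there and below LI (LI minus lung log2 difference 1.78 ± 0.29 SE, edgeR adjusted p = 0.00106), also without any 1 library.

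Feedback regulators of kinases and G proteins held 14 of 287 regions (4.88%), nearest *Rgs2* (3), *Sik1* (3), *Spry1* (2), *Dusp6*, *Rgs1*, *Rgs10*, *Socs1*, *Rgs3*, and *Spry2*. A region 30.8 kb downstream of *Socs1*, the gene of a cytokine signalling inhibitor (chr16:10754424-10754954), had 383 and 472 in BM, 134 and 115 in SI, 956 and 737 in LI, 670.4 and 877 in lung, and 1489 and 1327 in pancreas. BM exceeded SI (log2 difference 1.75 ± 0.22 SE, edgeR adjusted p = 4.97e-05), also without any 1 library, and this region held 4 AP-1 matches. Trafficking and residency genes held 20 of 433 (4.62%), nearest *Cd44* (7), *Cxcr4* (3), *Calcrl* (3), *Ptger2* (2), *Ramp1*, *Itgb1*, *Cxcr6*, *Ccr2*, and *Itgav*. *Calcrl* and *Ramp1* encode the 2 parts of the CGRP receptor. The *Ramp1* member (chr1:91202267-91202767) had 9.70 and 22.3 in BM, 20.2 and 10.2 in SI, 62.7 and 55.8 in LI, 193 and 221 in lung, and 80.8 and 118 in pancreas. Lung stood above LI there (LI minus lung log2 difference -1.79 ± 0.39 SE, edgeR adjusted p = 0.00693). This call was lost without LI replicate 2 (log2 difference -1.7) and without lung replicate 2 (log2 difference -1.68).

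The TGF-beta pathway held 6 members of 156 regions (3.85%), nearest the ligand gene *Tgfb3* (2), the receptor genes *Acvr2a* (2) and *Tgfbr2*, and *Skil*. The Notch pathway held 7 of 133 (5.26%), nearest *Rbpj* (4), *Notch2* (2), and *Maml3*, so the receptor, the DNA-binding partner, and a coactivator were present, and no ligand. Markers of other immune cells held 3 of 78 (3.85%), all nearest *Kit*, the stem cell factor receptor. The *Kit* member 25.3 kb into the gene (chr5:75600014-75600625) had 239 and 272 in BM, 834 and 972 in SI, 1119 and 1808 in LI, 1160 and 1242 in lung, and 1194 and 1161 in pancreas. BM was below SI (log2 difference -1.85 ± 0.22 SE, edgeR adjusted p = 3.05e-05), also without any 1 library. Markers of tissue cells held 2 of 59 (3.39%), nearest *Scgb1a1*, a gene of lung epithelium, though both regions lie inside the gene *Ahnak*. The lists hold few members each and were chosen with earlier results of these data known. Their shares, against 3.43% of all regions, are descriptions without a test.

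Of the 25 sets of letters searched, the AP-1 consensus differed most in share between members and all regions. TGANTCA, searched on both strands in 500 bp around the centre of each region, was found in 56.3% of members (95% interval 53.9 to 58.7) and in 23.2% of all 50039 regions. Outside promoters the shares were 57.3% and 26.6%, at promoters 30.8% and 8.95%, and among members with a gap of at least 1 it was 64.1%. At least 2 matches were present in 17.7% of members and 4.26% of all regions. The same letters in another order, TCANTGA, were found in 19.0% and 13.6%. With the window cut to 200 bp, the AP-1 shares were 43.4% and 14.9%. Of the members nearest a gene of the lists above, 79 of 138 (57.2%) held a match.

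Matches lay near the centres of the regions. Outside promoters, the match closest to the centre was at a median of 42 bp in members and 62 bp in all regions with a match, and 55.7% and 43.2% of them lay within 50 bp. A single match placed evenly would lie there in 20.45% of windows. More matches in a window bring the closest one nearer, and members more often held at least 2 (17.7% against 4.26%, promoters included). Whether members differ beyond this was not tested. The form with G or C in the middle was found in 47.6% of members and 18.4% of all regions, and the form with A or T in 16.3% and 6.58%. Read the other way, 2.37% of non-promoter regions without a match were members, 7.44% of those with 1 match, and 14.5% of those with at least 2.

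Regions selected by the same arithmetic in other tissues also held the letters, at lower shares. The share was 44.3% of 4013 regions closed in BM alone, 34.9% of 2127 closed in SI alone, and 44.3% of 1105 closed in BM and lung. In the mirror image, 388 regions open in BM and SI and closed in LI, lung, and pancreas, it was 11.6% (8.59 to 15.2). Whether these shares differ by more than chance was not tested, since neighbouring regions are not independent.

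Other consensus letters differed less. Members held more often than all regions the NFAT letters TGGAAAA (14.3% against 9.48%), the GATA letters AGATAAG (12% against 8.66%), the NR4A letters AAAGGTCA (5.42% against 2.93%), and the ETS letters CAGGAAG (33.1% against 27.5%). They held less often the KLF/SP letters GGGCGGG (6.35% against 21.5%), the ETS letters CCGGAAG (2.68% against 8.92%), and the CTCF letters AGGGGGC (6.00% against 13.4%), which are letters rich in G and C that are frequent at promoters. Outside promoters the NFAT shares were 14.2% and 10.3%, the GATA shares 12.2% and 9.99%, and the NR4A shares 5.45% and 3.30%. There the CAGGAAG shares were 33.5% and 29.5%, and the KLF/SP shares 5.39% and 13.0%. The NF-kappaB letters GGGANTTCC were found in 4.02% and 3.34%, and the RUNX letters TGTGGTT in 20.9% and 17.3% (21.1% and 19.8% outside promoters). No set of letters other than AP-1 had a share over 20 percentage points above that of all regions. A match is a run of letters and not a bound site.

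**Figure D4:**
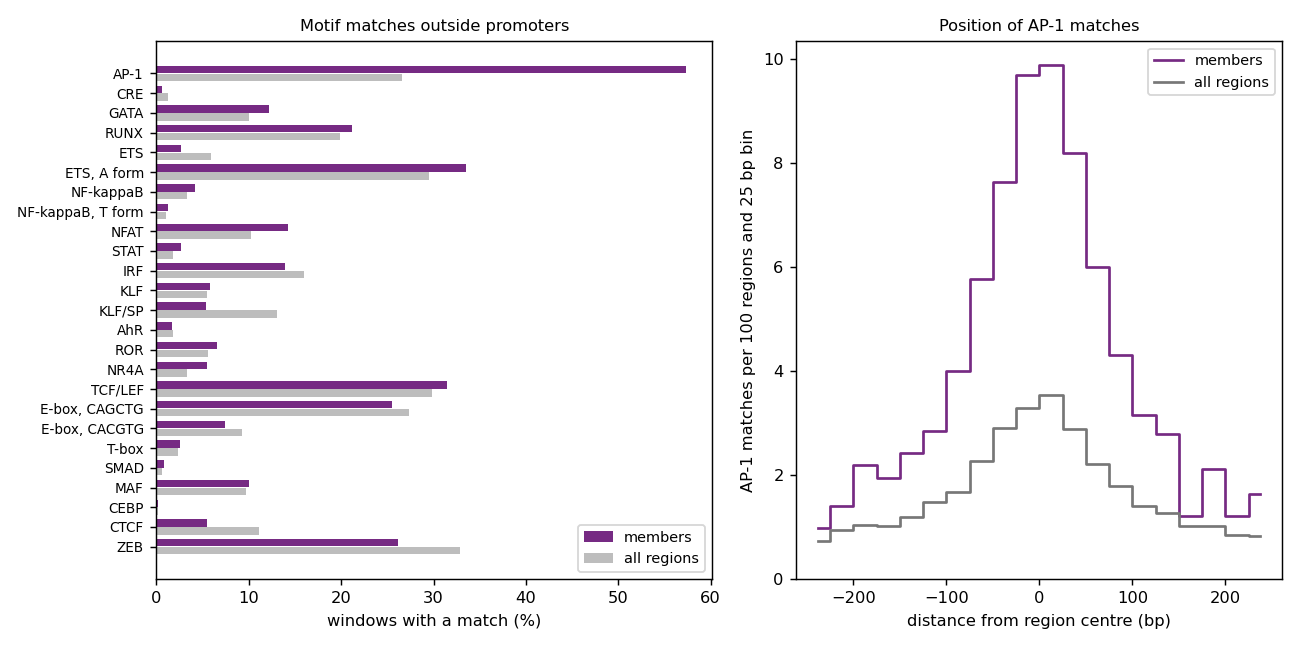
The left panel gives the share of 500 bp windows outside promoters with a match to each of 25 consensus sequences, for members and for all regions, and the right panel the number of AP-1 matches per 100 non-promoter regions in 25 bp bins by distance from the region centre. The AP-1 bar is 57.3% for members and 26.6% for all regions, and member matches peak at 9.87 per 100 regions in the bin from 0 to 25 bp.

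The rule did not compare BM with SI, or LI, lung, and pancreas with one another. It did use the value of each library, so it bounds both levels and the spread between libraries. The differences within each group were tested with edgeR (quasi-likelihood, TMM, 49981 regions with at least 1 count, called at a Benjamini-Hochberg adjusted p under 0.05), where p-values measure the spread between 2 pooled libraries per tissue. The counts tested are those that chose the members. In all 4 contrasts, whether the share of members called goes beyond the selection was not tested. No call in any of the 4 contrasts was made for 1178 members (68.6%), against 66.9% of all regions.

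BM and SI differed at 329 members. BM was higher at 100 (5.83%, against a background of 10.7% of all regions) and lower at 229 (13.3% against 15.1%). Both shares lie below the background. The selection held BM and SI below the open tissues, so whether these lower shares go beyond the selection was not tested. The number called fell to 205 without BM replicate 1 and to 214 without BM replicate 2. The largest difference lay near *Slc17a6*, a vesicular glutamate transporter gene. This region (chr7:51723909-51724430) had 16.5 and 27.0 in BM, 174 and 328 in SI, 654 and 687 in LI, 707 and 666 in lung, and 818 and 712 in pancreas. BM was below SI (log2 difference -3.56 ± 0.33 SE, edgeR adjusted p = 3.35e-06). Next came a region 14.8 kb upstream of *Lrrn2* (chr1:132865212-132865807), with 25.2 and 48.4 in BM, 296 and 547 in SI, 951 and 1098 in LI, 1078 and 1403 in lung, and 912 and 905 in pancreas (log2 difference -3.54 ± 0.33 SE, edgeR adjusted p = 3.43e-06), and then the region beside the first near *Slc17a6* (log2 difference -3.32 ± 0.40 SE, edgeR adjusted p = 3.05e-05). In the other direction, after *Icos* and *Nrp1* above, BM was higher in intron 2 of *A330093E20Rik* (log2 difference 2.37 ± 0.26 SE, edgeR adjusted p = 1.53e-05). All these calls held without any 1 library.

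LI and lung differed at 167 members, with LI higher at 66 (3.85% against 8.18%) and lower at 101 (5.89% against 2.72%). More of all regions were called higher in LI and more members higher in lung, but with library totals alone all regions turned to lung too (5.56% higher in LI and 6.80% lower). The number called ranged from 32 without lung replicate 2 to 251 without SI replicate 1, with 81 without lung replicate 1, 58 without LI replicate 1, and 89 without LI replicate 2. At the promoter of *Adgrf5*, an adhesion receptor gene with a role in lung surfactant (chr17:43388722-43389257), the counts were 45.6 and 61.4 in BM, 39.3 and 31.9 in SI, 71.2 and 102 in LI, 459 and 447 in lung, and 184 and 218 in pancreas. LI was below lung (log2 difference -2.34 ± 0.28 SE, edgeR adjusted p = 0.000123), also without any 1 library. Pancreas was below lung as well (lung minus pancreas log2 difference 1.17 ± 0.27 SE, edgeR adjusted p = 0.0174), a call lost without lung replicate 1 (0.0817), without lung replicate 2 (0.158), without pancreas replicate 1 (0.126) and without pancreas replicate 2 (0.0969). LI was also below lung at a region near *ccdc198* (chr14:49219150-49219668), with 29.1 and 64.2 in BM, 53.7 and 21.7 in SI, 88.2 and 217 in LI, 797 and 883 in lung, and 283 and 235 in pancreas (log2 difference -2.41 ± 0.40 SE, edgeR adjusted p = 0.00117), also without any 1 library. There too pancreas was below lung (lung minus pancreas log2 difference 1.69 ± 0.39 SE, edgeR adjusted p = 0.0181), a call lost without lung replicate 1 (0.0507), without lung replicate 2 (0.158), without pancreas replicate 1 (0.0901) and without pancreas replicate 2 (0.197). A *Sema6d* member (chr2:124637269-124637769) had 3.88 and 3.72 in BM, 15.4 and 2.71 in SI, 23.7 and 42.9 in LI, 140.3 and 209 in lung, and 26.1 and 33.6 in pancreas and was lower in LI than in lung (log2 difference -2.33 ± 0.52 SE, edgeR adjusted p = 0.00792), a call lost without LI replicate 1 (0.085) and without lung replicate 2 (0.121). In the reverse direction LI exceeded lung in intron 2 of *Taf3* (log2 difference 2.09 ± 0.36 SE, edgeR adjusted p = 0.00152), which held without any 1 library, near *Fmr1os* (log2 difference 2.15 ± 0.46 SE, edgeR adjusted p = 0.00601), which was lost without LI replicate 1 (0.0901) and without lung replicate 2 (0.0667), and in intron 6 of *Dmxl2* (log2 difference 1.90 ± 0.34 SE, edgeR adjusted p = 0.00202), which was lost without lung replicate 2 (0.0571).

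LI and pancreas differed at 94 members, with LI higher at 14 (0.816% against 2.01%) and lower at 80 (4.66% against 1.25%). The number ranged from 6 without pancreas replicate 1 to 177 without SI replicate 1, with 34 without LI replicate 1, 8 without LI replicate 2, 20 without pancreas replicate 2, and 175 without SI replicate 2. The promoter of *Stc2*, which encodes the secreted glycoprotein stanniocalcin-2 (chr11:31369674-31370451), had 32.0 and 23.3 in BM, 53.7 and 26.5 in SI, 102 and 70.4 in LI, 145 and 163 in lung, and 399 and 519 in pancreas. LI was below pancreas (log2 difference -2.42 ± 0.34 SE, edgeR adjusted p = 0.00138), and this call held without any 1 library. Regions near *1700020N01Rik* (log2 difference -2.17 ± 0.41 SE, edgeR adjusted p = 0.00767, lost without LI replicate 2 (0.0967) and without pancreas replicate 2 (0.124)) and *Mroh4* (log2 difference -2.12 ± 0.38 SE, edgeR adjusted p = 0.0055, lost without LI replicate 2 (0.101) and without pancreas replicate 1 (0.109)) had the next largest differences. LI was the higher tissue in intron 2 of *Plekhg1* (log2 difference 1.64 ± 0.30 SE, edgeR adjusted p = 0.00725, lost without pancreas replicate 1 (0.131) and without pancreas replicate 2 (0.0673)), 34.6 kb upstream of *Fth1*, the ferritin heavy chain gene (log2 difference 1.63 ± 0.33 SE, edgeR adjusted p = 0.0113, lost without LI replicate 2 (0.122), without pancreas replicate 1 (0.176) and without pancreas replicate 2 (0.0751)), and near *Ociad2* (log2 difference 1.58 ± 0.41 SE, edgeR adjusted p = 0.0462), a call lost in 8 of the 10 fits without 1 library, with adjusted p-values of up to 0.28.

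Lung and pancreas differed at 132 members, with lung higher at 30 (1.75% against 1.62%) and lower at 102 (5.94% against 4.2%). The number ranged from 6 without lung replicate 2 to 229 without SI replicate 1, with 42 without lung replicate 1, 47 without pancreas replicate 1, 17 without pancreas replicate 2, and 215 without SI replicate 2. In intron 2 of *Ctnnd2*, the gene of delta-catenin (chr15:30468703-30469231), the counts were 16.5 and 14.9 in BM, 26.9 and 11.5 in SI, 120.4 and 102 in LI, 43.1 and 63.4 in lung, and 378 and 311 in pancreas. Lung was below pancreas (log2 difference -2.69 ± 0.35 SE, edgeR adjusted p = 0.000938), also without any 1 library. Regions in intron 2 of *Pde11a*, a phosphodiesterase gene (log2 difference -2.30 ± 0.39 SE, edgeR adjusted p = 0.00343, lost without lung replicate 2 (0.0722)), and near *Sectm1a* (log2 difference -2.26 ± 0.33 SE, edgeR adjusted p = 0.00136), where the call held, were also lower in lung. Lung exceeded pancreas at the *Sema6d* member above (log2 difference 2.56 ± 0.54 SE, edgeR adjusted p = 0.0113, lost without lung replicate 2 (0.17), without pancreas replicate 1 (0.0919) and without pancreas replicate 2 (0.0879)), near *Uts2*, the urotensin-2 gene (log2 difference 1.98 ± 0.49 SE, edgeR adjusted p = 0.0272, lost without lung replicate 1 (0.057), without lung replicate 2 (0.263) and without pancreas replicate 1 (0.179)), and 178.7 kb upstream of *Cxcr4*, a chemokine receptor gene (log2 difference 1.85 ± 0.38 SE, edgeR adjusted p = 0.00916, lost without lung replicate 2 (0.13) and without pancreas replicate 1 (0.0926)).

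**Figure D5:**
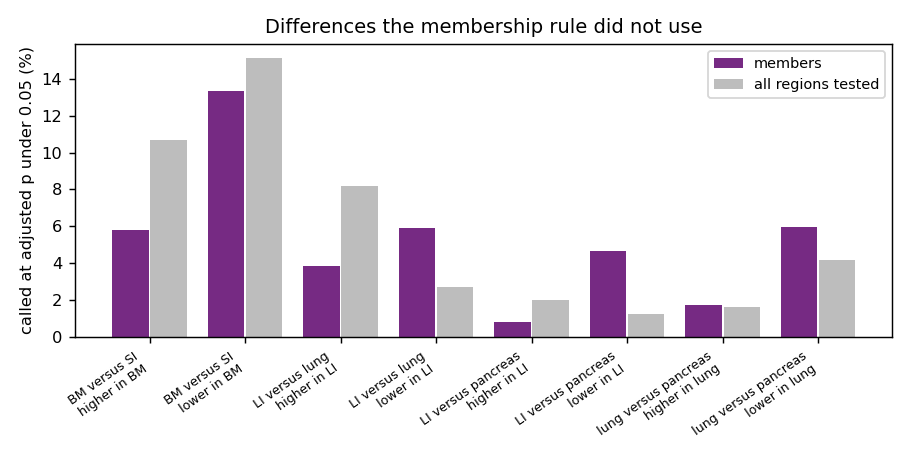
Bars give the share of members and of all regions tested that were called higher or lower in each of the 4 contrasts (edgeR, adjusted p under 0.05). Members exceed all regions among those lower in LI than in lung (5.89% and 2.72%) or pancreas (4.66% and 1.25%). The selection used the same libraries, and whether these shares go beyond it was not tested.

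By mean level, pancreas was the highest of the open tissues at 832 members (48.5%, against 30.2% of all regions), lung at 514 (30.0% against 37.3%), and LI at 370 (21.6% against 32.5%), where the shares of all regions refer to the same 3 tissues. This order depends on the scaling. With library totals alone lung was the highest at 860 members (50.1% against 55.3%), pancreas at 599 (34.9% against 20.2%), and LI at 257 (15.0% against 24.5%). BM was the lower of the closed tissues at 978 members and SI at 738, and with library totals alone at 1246 and 470. The median log2 difference of members was -0.14 for BM minus SI, -0.03 for LI minus lung, -0.20 for LI minus pancreas, and -0.15 for lung minus pancreas. Scaling by library totals alone moved the median of all regions by -0.20, -0.25, 0.00, and 0.25, so it moves the split of calls with it. Under that scaling BM was the higher tissue in 15.0% of the calls between BM and SI (30.4% with TMM), LI in 12.9% of those between LI and lung (39.5%), and lung in 54.7% of those between lung and pancreas (22.7%), which turns the last direction.

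Members with and members without an AP-1 match were both called lower in BM than in SI more often than higher, as were all regions (15.1% and 10.7%). Of the 966 with a match, BM was lower than SI at 15.6% and higher at 6.31%, and of the 750 without one at 10.4% and 5.20%. LI was lower than pancreas at 4.55% and 4.80% (1.25% of all regions). No difference between these shares was tested.

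The libraries held 10282987 to 32797872 counts. The median count at a member was 54 to 93 in BM and SI and 96 to 323 in the other tissues, and the BM and SI libraries had 18960309 to 26080061 counts, within the range of the others. Members took up 0.832% to 1.15% of the counts in BM and SI and 1.94% to 2.76% elsewhere. The 2 libraries of a tissue were farther apart than sampling of reads allows in all 5 tissues (chi-square per degree of freedom 12.8 to 56.0). The ILC2 label was checked at promoters. Of 12 ILC2 markers, 11 had a promoter region, with summed normalised counts of 6137 to 7933 in BM and SI and 6370 to 9478 in the other tissues. No promoter region was present for the listed B cell, myeloid, ILC1, ILC3, NK, mast cell, basophil, or eosinophil markers. Of 5 T cell markers *Cd3e* and *Cd3g* had one, at summed counts of 95.8 to 183 in BM and SI and 91.6 to 201 elsewhere, and of 8 markers of epithelium and stroma *Cdh1* alone, at 57.3 to 125 and 87.5 to 185. Single markers were less even than these sums. *Cd3g* had 26.2 and 27.9 in BM and 45.8 to 115.5 elsewhere, and *Cd3e* 45.8 to 104.6 over all libraries. *Klrg1* had 221 and 232 in BM and 702 to 1521 elsewhere, and *Il1rl1* 90.2 and 69.2 in SI and 202 to 846 elsewhere. In the other direction, *Id2* had 1545 and 1514 in BM and 829 to 1191 elsewhere. The part of other cells in the members was not tested.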

How the data were processed

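The authors mapped ATAC-seq reads to mm10 with Bowtie2 2.2.9, kept uniquely mapped reads, called peaks with MACS2 2.1.1 in each library, kept those that a tissue's 2 libraries shared, merged the tissues with HOMER, and deposited raw counts per merged region and library, counted with bedtools. The deposited counts are not normalised. Duplicate removal and a shift for the transposase are not given in the sources used here. Region coordinates follow the deposited table.

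Members and gene lists were chosen with earlier results of these data known. Counts were scaled by median-of-ratios size factors for membership. Tests used edgeR 4.0.16 (glmQLFit, glmQLFTest, TMM) on the counts of 10 libraries with tissue as the only factor, and DESeq2 1.42.0, which the authors used, as an alternative. The fit and the motif search were tested on simulated data. Libraries with the same replicate number did not consistently deviate together (correlations -0.23 to 0.20, above 0.1 in 4 of 10 tissue pairs), so the numbers were not used as pairs. Such weak correlations cannot exclude shared mice or a shared preparation, which the sources used here do not give. The study's methods call the 2 libraries of a tissue biological duplicates of pooled mice, and p-values measure the spread between them.

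Nearest genes and classes came from curated RefSeq transcripts of GRCm38 (44322), by the centre of a region, after chromosome names and lengths had been matched. The nearest gene is a convention, and GENCODE gave the same one for 74.5% of regions. Shares carry exact (Clopper-Pearson) intervals, which cover counting error only. Motif letters were searched as exact matches on both strands. The AP-1 letters can overlap those of the MAF (TGCTGAC) and CRE (TGACGTCA) searches. Regions named are the 20 members with the largest gap, the 3 largest called differences in each direction of the 4 contrasts, the 10 genes with the most members, and the members nearest a listed gene. Alternatives were other scalings, pseudocounts, gaps, filters, promoter limits, tools and subsets of libraries, the replicate block, and fits without 1 library. The AP-1 alternatives and the order of tissues under library totals were chosen after seeing the data.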

Additional observations from a re-analysis of the deposited data

How the results depend on the processing

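The number of members was 2811 for any gap above 0, 800 for a gap of 0.5, 234 for a gap of 1, and 1819 to 2584 when a library was left out, the highest without SI replicate 2. Library totals alone gave 1350, of which 1252 were among the 1716. The promoter share was 5.77% for 1000 bp on both sides of a TSS (27.2% of all regions) and 0.855% at a gap of 1. The AP-1 share was 64.1% at a gap of 1, 59.6% with library totals alone, and 43.4% in 200 bp windows. Members called between BM and SI were 155 with DESeq2 and 192 with edgeR on the 4 libraries of the contrast, and 205 to 318 with a library left out. Between LI and lung they were 267, 303, and 32 to 251. Between LI and pancreas they were 162, 175, and 6 to 177, and 155 with DESeq2 on 10 libraries. Between lung and pancreas they were 250, 342, and 6 to 229. The cause was not tested. The numbers moved in both directions. With edgeR on 4 libraries the number fell for BM and SI (192 against 329 on 10 libraries). It rose for LI and lung (303 against 167), LI and pancreas (175 against 94), and lung and pancreas (342 against 132). Fits on 4 libraries, or without 1, estimate the spread from fewer samples. All tissues in a fit share 1 estimate of the spread, and a tissue left with 1 library is assumed to vary like the others.

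With the replicate number as a block the numbers called were 320, 167, 99, and 143, near 329, 167, 94, and 132. Whether the replicate numbers pair the libraries is not known. The 24 largest tested differences kept their direction in all 408 refits and their call in 377, and the 31 losses came from fits without 1 library. Over all 129 calls at named regions, 28 held in each of the 10 fits without 1 library, and none changed sign. With 2 libraries per tissue, a call lost in this way does not show that a region is level. A kept direction also shows little. The filter of at least 10 counts in at least 2 libraries tested the same 49981 regions, so that refit repeats the main fit. Most fits without 1 library left out a tissue outside the contrast, which hardly moves the log2 difference.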
